A study of Mus musculus with 31 samples.

Results

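The lung response of AKR and C57 mice to lipopolysaccharide (LPS, the outer-membrane component of Gram-negative bacteria) was compared after room air, as a difference of differences: the change from saline to LPS in AKR minus the change from saline to LPS in C57. The comparison used 12 of the 31 arrays of the series, namely every array titled with 3 wk of room air and an instillation. They fall into 4 groups of 3 biological replicates: C57 given normal saline, C57 given LPS in saline, AKR given normal saline, and AKR given LPS in saline, each through the trachea. All 12 were male mice with a stated age of 6 wk, and lung tissue was the source of the RNA. The series' design text gives 6 weeks of exposure for instilled mice where the titles give 3 wk, so the length of the air exposure is uncertain; the LPS dose and the time from instillation to dissection are not given in the sources used here. The labels name no allele or transgene, and the series title writes the second strain as C57BL/6; both are inbred, so strain stands for a whole genetic background.

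LPS binds LBP and CD14 and is passed to the TLR4 and MD-2 receptor (Tlr4 and Ly96), which signals through MYD88 to NF-kB and through TRIF to type I interferons. In the lung this is known to bring cytokines, chemokines and neutrophils within hours, and interferon gamma from lymphocytes then induces guanylate-binding proteins and other GTPases. The lung also holds B cells, T cells, natural killer cells and macrophages, so the RNA of the whole tissue reflects how much of each cell type is there as well as what each cell expresses. In these arrays fewer cells of a type and less RNA per cell cannot be told apart.

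The values are log2 intensities, and a positive interaction means that a gene's change with LPS was more upward, or less downward, in AKR than in C57. The threshold was an adjusted p of 0.05 (limma, Benjamini-Hochberg over the 14705 genes tested), errors after ± are standard errors of the fit, and "higher" and "lower" below mean a positive or a negative interaction that passed. Lung markers were near the top of every array: Sftpc, Sftpa1, Sftpb (surfactant proteins) and Scgb1a1 (club cells) lay at or above percentile 99.4 of the array's probe sets. Heart muscle transcripts were also present, with Myh6 between percentiles 66.0 and 99.1, and the mean of the 11 heart muscle genes, relative to each gene's mean over arrays, ran from -0.42 to 1.52 on AKR saline arrays, from -1.18 to 0.90 on AKR LPS arrays, from -0.18 to 0.36 on C57 saline arrays and from -1.81 to -0.02 on C57 LPS arrays. Their part in the results was not tested. The third AKR LPS array stood apart, with a weaker response: its mean over 21 type I interferon-stimulated genes was 0.02, where the other AKR LPS arrays had 1.15 and 1.40. The third AKR saline array had Saa3 (a serum amyloid A made in inflamed lung) at 8.95, against 6.22 and 6.38 on the other AKR saline arrays.

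The LPS effect differed between the strains for 181 genes (1.23% of the 14705 tested), 142 of them higher (0.966%) and 39 lower in AKR (0.265%); at an unadjusted p under 0.05 there were 1735 genes. The median interaction over all genes tested was -0.04, and 6140 of the 14705 were positive. LPS itself moved far more genes in each strain: in AKR 1446 rose (9.83%) and 929 fell (6.32%), and in C57 1748 rose (11.9%) and 706 fell (4.8%). These shares are the background for the counts of list members below. Of the 142 higher genes, 46 rose in AKR with no call in C57, 33 fell in C57 with no call in AKR, 33 rose in both strains and by more in AKR, and 30 rose in AKR and fell in C57. Of the 39 lower genes, 20 rose in C57 with no call in AKR, 7 fell in AKR with no call in C57, 6 fell in AKR and rose in C57, and 6 rose in both and by less in AKR. The count depended on single arrays: it was 379 without the third AKR LPS array and 70 without the third C57 saline array, and 63 of the 181 genes passed whichever of the 12 arrays was left out. At the edge of the threshold, Praf2 (adjusted p = 0.0498), Ccr2 (0.0498) and Tarm1 (0.0498) lay just inside, and Smoc2 (0.051), Il7r (0.052) and Nabp1 (0.052) just outside.

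**Figure D1:**
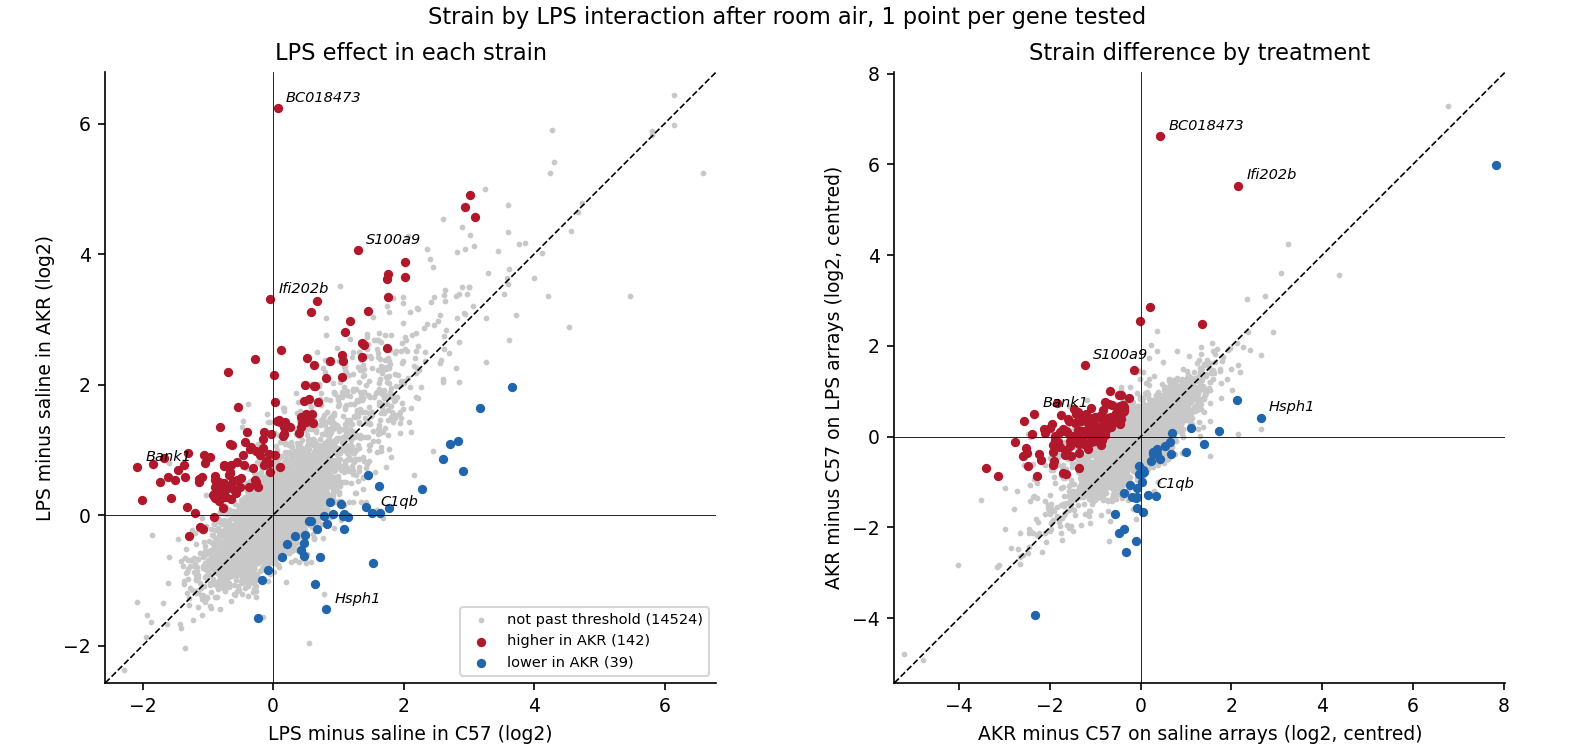
Each point is a gene tested (14705), with the 142 higher genes in red and the 39 lower genes in blue; the left panel plots the log2 change with LPS in AKR against that in C57, the right panel the AKR minus C57 difference on the LPS arrays against that on the saline arrays, each centred on the median of all genes, and dashed lines mark equality. In the left panel most points lie along the diagonal; in the right panel most red points lie left of 0 on the saline axis and near 0 on the LPS axis.

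An interaction can come from a strain difference on the saline arrays, on the LPS arrays or on both. The AKR and C57 arrays used here have different distributions: over all genes the AKR minus C57 median was -0.16 on saline arrays and -0.20 on LPS arrays. Strain differences were therefore centred on these medians, while the values of single arrays, and the ranges of a group read from them, are as deposited and carry this shift. On that centred scale, 122 of the 142 higher genes had the larger strain difference on the saline arrays and 20 on the LPS arrays, with a median AKR minus C57 difference of -1.17 with saline and 0.20 with LPS. After LPS 101 of the 142 lay within 0.5 of the C57 level, and after saline 16 did. The 39 lower genes were the other way round: 27 had the larger strain difference on the LPS arrays and 12 on the saline arrays, with medians of 0.08 with saline and -0.78 with LPS. Over all tested genes the split was 7690 on the saline arrays and 7015 on the LPS arrays. These splits describe the genes already chosen by the interaction and carry no test.

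The largest interaction was in BC018473 (probe set 10382846), a long non-coding RNA gene of chromosome 11. The C57 saline arrays had 5.59, 5.60 and 5.45 and the C57 LPS arrays 5.85, 5.57 and 5.43. The AKR saline arrays had 5.79, 5.47 and 6.15 and the AKR LPS arrays 12.56, 12.54 and 11.02. Its signal thus stayed low on 9 of the 12 arrays and was high on all 3 AKR LPS arrays. On those 9 it lay below the 40th percentile of the array (6.21 to 6.51). Genes were tested if above that percentile on at least 3 arrays. Among the 12 arrays, this gene was so only on the AKR LPS arrays, so the filter itself favoured this pattern. The change was 6.24 in AKR and 0.07 in C57, an interaction of 6.17 ± 0.47 (limma adjusted p = 1.9e-04). Its neighbours in the RefSeq gene order did not pass: St6galnac2 had an interaction of 0.07, St6galnac1 of 0.54 and Mxra7 of -0.09 (adjusted p = 0.98, 0.44 and 0.92).

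Ifi202b, an interferon-inducible HIN-200 protein that binds DNA and opposes the AIM2 inflammasome, is known to be hardly expressed in C57BL/6 mice. It lay between 3.78 and 4.20 on all 6 C57 arrays, near the 5th percentile of those arrays (3.50 to 3.63). It was at 5.92, 6.00 and 6.13 on the AKR saline arrays and at 9.64, 9.88 and 8.46 on the AKR LPS arrays. The strains did not overlap with either treatment, and the interaction was 3.35 ± 0.40 (limma adjusted p = 0.0027). Of the 4 HIN-200 genes tested only Ifi202b passed; Ifi203 had 1.17 ± 0.37 (adjusted p = 0.20), Aim2, the DNA sensor of the inflammasome, 1.18, and Ifi205 -0.93 ± 0.41 (0.39). Ifi214, another interferon-inducible gene, was higher too, by 2.89 ± 0.45 (adjusted p = 0.0105), but from a different pattern: C57 had 7.47 to 7.60 with saline and 6.42 to 7.11 with LPS, AKR 3.96 to 5.29 with saline and 6.55 to 7.37 with LPS.

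Interferon gamma-induced GTPases, which attack the vacuoles of intracellular pathogens, were listed with partners that are not GTPases (Ciita, Ido1, Cd274, Nos2, Irf1 and Socs1). This list had positive interactions in 17 of 17 genes tested (6140 of all 14705), with a median of 0.87. Of these, 2 passed (Gbp2b and Iigp1), against 0.966% of all genes in that direction. Gbp2b, a guanylate-binding protein, had 5.89, 5.53 and 5.80 on C57 saline arrays, 6.40, 6.36 and 6.49 on C57 LPS arrays, 5.71, 5.89 and 5.75 on AKR saline arrays and 9.44, 9.89 and 7.86 on AKR LPS arrays. Every AKR LPS array was above every C57 LPS array, and the interaction was 2.61 ± 0.53 (limma adjusted p = 0.038). Iigp1, an immunity-related GTPase, rose in both strains, by 4.72 in AKR and 2.94 in C57, and its interaction of 1.78 ± 0.34 (adjusted p = 0.027) went with a lower AKR level after saline: 6.23 to 6.62 in AKR against 8.22 to 8.59 in C57, and 10.58 to 11.72 against 11.17 to 11.62 after LPS. Gbp5 rose by 4.76 in AKR and 3.59 in C57, an interaction of 1.16 ± 0.48 that did not pass (0.35). The list is sensitive to the third AKR LPS array: without it the median was 1.27 and 5 genes passed, and with each of the other arrays left out in turn between 0 and 2 passed. Over all genes, 328 were higher without the third AKR LPS array, against 142 with all 12 arrays. The type I interferon-stimulated genes rose in both strains for 21 of 21 genes, with medians of 2.13 in AKR and 1.76 in C57, and none passed the limma interaction (median 0.34; 1 gene at an unadjusted p under 0.05); without the third AKR LPS array 1 passed.

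**Figure D2:**
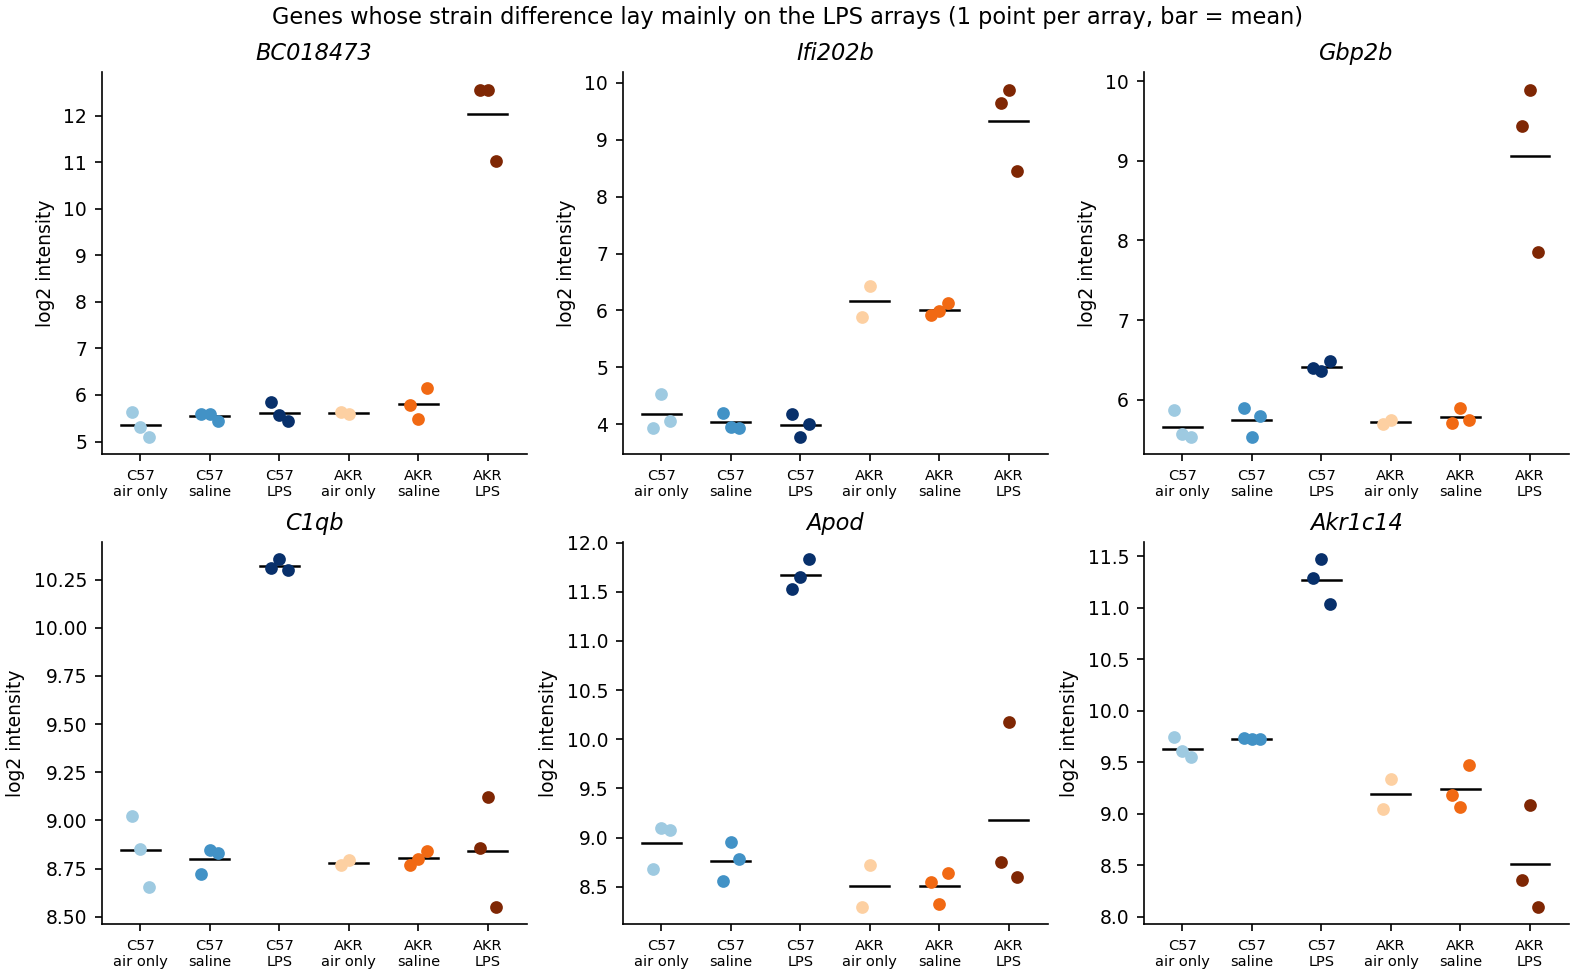
Log2 intensity of 6 genes on each array (points) with group means (bars), for both strains without instillation, with saline and with LPS; the air-only arrays are 3 C57 arrays titled 6 wk and 2 AKR arrays titled 3 wk. BC018473, Ifi202b and Gbp2b are high on the 3 AKR LPS arrays, and C1qb, Apod and Akr1c14 on the 3 C57 LPS arrays.

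The complement C1q genes, whose 3 chains form the recognition molecule of the classical complement pathway and are made mainly by tissue macrophages, rose with LPS in C57, with no call in AKR. C1qb had 8.72, 8.85 and 8.83 on C57 saline arrays and 10.31, 10.36 and 10.30 on C57 LPS arrays. In AKR it had 8.77, 8.80 and 8.84 with saline and 8.86, 9.12 and 8.55 with LPS, so the C57 LPS arrays stood apart from the other 9. The interaction was -1.48 ± 0.17 for C1qb, -1.30 ± 0.16 for C1qa and -1.17 ± 0.13 for C1qc (limma adjusted p = 0.0024, 0.0036 and 0.0017), with rises in C57 of 1.52, 1.09 and 1.14. These 3 genes lie next to each other on chromosome 4, and the next gene, Epha8, had 0.09 ± 0.23. Each passed in all 12 fits that left an array out. Other markers of resident macrophages did not pass: 6 of the 9 genes of that list, with Stab1 at -0.55, Folr2 at -0.53 and Cd163 at -0.44 (list median -0.53). The 10 alveolar macrophage genes had a median of -0.0026, none passing the limma interaction (1 at an unadjusted p under 0.05).

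The acute-phase proteins, which the liver and inflamed epithelium release, rose in both strains: 13 of 13 genes in C57, with a median of 2.60, and 12 of 13 in AKR, with a median of 2.22. Saa2 and Orm3 were lower in the interaction. Saa2, a serum amyloid A, went from 4.55, 4.67 and 4.57 to 7.62, 6.46 and 7.51 in C57 and from 4.57, 4.52 and 4.32 to 5.31, 5.28 and 5.42 in AKR, an interaction of -1.74 ± 0.33 (limma adjusted p = 0.027). Orm3, an orosomucoid that carries lipophilic molecules, rose by 3.18 in C57 and 1.65 in AKR (-1.53 ± 0.26, 0.017). The list was mixed: Orm1 had -2.11 (0.25) and Saa3 -1.34 ± 0.76 (0.56), while Orm2 had 0.31 and Lcn2 (lipocalin, which binds bacterial siderophores) 0.57, and the list median of -0.55 was -0.32 without the third AKR saline array, the one with high Saa3.

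Cytokines and chemokines rose in both strains for most genes, 29 of 31 in each. Il1b (an inflammasome-processed cytokine, 1.48) and Ccl5 (a chemokine of T cells and natural killer cells) were higher, and Ccl12 (a monocyte chemokine) lower; the list median was 0.32. Ccl5 was at 10.48, 10.51 and 10.57 on C57 saline arrays, 11.88, 11.68 and 11.50 on C57 LPS arrays, 7.78, 7.89 and 7.95 on AKR saline arrays and 11.24, 11.24 and 10.08 on AKR LPS arrays. The strains were thus far apart after saline and close after LPS, with an interaction of 1.81 ± 0.35 (limma adjusted p = 0.029). Ccl12 rose by 2.83 in C57 and by 1.14 in AKR (-1.69 ± 0.34, 0.037). The early cytokines of the LPS response had interactions that did not pass: Tnf rose by 4.05 in AKR and 3.45 in C57 (0.61 ± 0.47, adjusted p = 0.71), the interaction of Il6 was 1.75 ± 0.51 (0.16), and the neutrophil chemokine Cxcl2 rose by 5.98 and 6.15 (-0.17 ± 0.48, 0.95). Of the LPS receptor and its signalling genes, none of 19 passed the limma interaction (median 0.13; 3 at an unadjusted p under 0.05): the receptor Tlr4 had -0.47 ± 0.15 (0.22) and the co-receptor Cd14 0.48 ± 0.34 (0.67). Of the NF-kB feedback genes, which end the response, none of 18 passed it (median 0.31; 7 at an unadjusted p under 0.05).

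Markers of B cells, the antibody-producing lymphocytes, were the list with the most members among the higher genes. Of 13 genes tested 11 were higher, against 0.966% of all genes, and the other 2, Ebf1 and Ms4a1, did not pass. The list median was 2.05 (all genes -0.04). In C57 12 of the 13 fell with LPS (median -1.35), against 4.8% of all genes. In AKR 2 rose, against 9.83% of all genes, and none fell (median 0.58). Bank1, a scaffold of B cell receptor signalling, was at 9.45, 9.58 and 9.67 on C57 saline arrays and 7.20, 7.34 and 7.92 on C57 LPS arrays. It was at 7.02, 6.96 and 7.17 on AKR saline arrays and 8.57, 7.24 and 7.56 on AKR LPS arrays. The C57 saline arrays lay above all other 9, and the interaction was 2.83 ± 0.40 (limma adjusted p = 0.0059). Cd79a, a signalling chain of the B cell receptor, had 10.10, 10.28 and 10.41, then 8.38, 8.14 and 8.76 in C57, and 7.33, 7.08 and 7.56, then 8.95, 7.45 and 7.95 in AKR (2.63 ± 0.43, 0.013). Fcer2a, the low-affinity receptor of IgE (CD23), followed another course: it did not pass in C57 (8.76 to 9.22 with saline, 8.98 to 9.53 with LPS) and rose in AKR from 5.96 to 6.85 up to 8.81 to 9.30 (2.40 ± 0.33, 0.0059). Further B cell genes outside the list passed: Cxcr5, the receptor that brings B cells to follicles, had 2.26 ± 0.35, and the MHC class II modulators H2-Ob and H2-Oa 2.24 ± 0.24 and 1.24 ± 0.20. Of the 7 plasma cell and immunoglobulin genes tested as a list, 0 passed (median 0.46). Among them Ighm had 0.53 ± 0.48 and Jchain 0.46 ± 0.60 (limma adjusted p = 0.78 and 0.87). Igha, an immunoglobulin gene not on that list, was higher. The first AKR LPS array had the highest B cell mean of its group (0.31, against -0.56 and -0.36), and the list median without it was 1.78 with 10 genes passing. In that fit 86 of all genes were higher.

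Other lymphocyte markers had smaller interactions of the same sign. T cell genes were positive in 14 of 14 (6140 of all 14705 genes were) with a median of 0.60. Only Lef1, a transcription factor of naive T cells, passed (0.89 ± 0.17, limma adjusted p = 0.029). Natural killer cell genes were positive in 10 of 10 with a median of 0.98, and none passed (6 at an unadjusted p under 0.05; 6 passed without the third AKR LPS array); Klrd1 (CD94) had 1.47 ± 0.34 (0.064). The gene with the smallest p of all was Ripor2, an inhibitor of the RHOA GTPase active in lymphocytes and neutrophils, named here after its values were seen. It had 9.38, 9.40 and 9.41 on C57 saline arrays, 8.92, 8.86 and 8.79 on C57 LPS arrays, 7.46, 7.59 and 7.38 on AKR saline arrays and 9.21, 9.20 and 8.97 on AKR LPS arrays, an interaction of 2.19 ± 0.13 (2.4e-05). Ptprc (CD45), which all leukocytes carry, also chosen after its values were seen, had 10.43 to 10.72 and 10.44 to 10.86 in C57 with saline and LPS, and 9.16 to 9.52 and 10.70 to 11.27 in AKR, a change of 0.03 in C57 and 1.73 in AKR (adjusted p of the interaction 0.0059). Its level after saline was lower in AKR than in C57 on every array, and so were the means over the B cell, T cell and natural killer cell lists: the B cell mean was -0.97 to -0.72 on AKR saline arrays and 1.03 to 1.25 on C57 saline arrays.

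MHC class I and II genes, which present peptides to T cells, were positive in 16 of 16 (6140 of all 14705) with a median of 0.62. H2-Ob and H2-Oa passed. Cd74, the invariant chain of MHC class II, had 0.71 ± 0.19 (adjusted p = 0.11). H2-Ob fell in C57, from 10.12, 10.42 and 10.28 to 8.05, 8.28 and 8.45, and lay at 7.55, 7.52 and 7.71 with saline and 8.26, 7.53 and 7.68 with LPS in AKR.

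Neutrophil genes rose with LPS in both strains, 14 of 14 in C57 with a median of 1.75 and 13 of 14 in AKR with a median of 3.16. The calprotectin subunit S100a9, the chemokine receptor Cxcr2 and the G-CSF receptor Csf3r were higher in AKR, and the list median was 1.22. S100a9 went from 9.29, 8.59 and 8.24 to 9.69, 10.18 and 10.12 in C57 and from 7.42, 7.90 and 6.60 to a mean of 11.37 (SD 0.33, n = 3) in AKR. AKR was below every C57 array after saline and above every C57 array after LPS, and the interaction was 2.77 ± 0.46 (limma adjusted p = 0.015). Its partner S100a8 had 2.21 ± 0.50, which did not pass (0.064). Cxcr2 lay at 8.18 to 9.12 with saline and 10.18 to 10.61 with LPS in C57, and at no more than 7.17 and at 10.58 to 11.07 in AKR (1.93 ± 0.30, 0.0104). After LPS the deposited ranges overlapped between the strains by less than the overall shift between them, and the centred AKR minus C57 difference was -1.42 with saline and 0.55 with LPS. Ly6g, the usual surface marker of mouse neutrophils, had 1.14 and did not pass. Without the third AKR LPS array the list had 7 genes past the threshold.

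**Figure D3:**
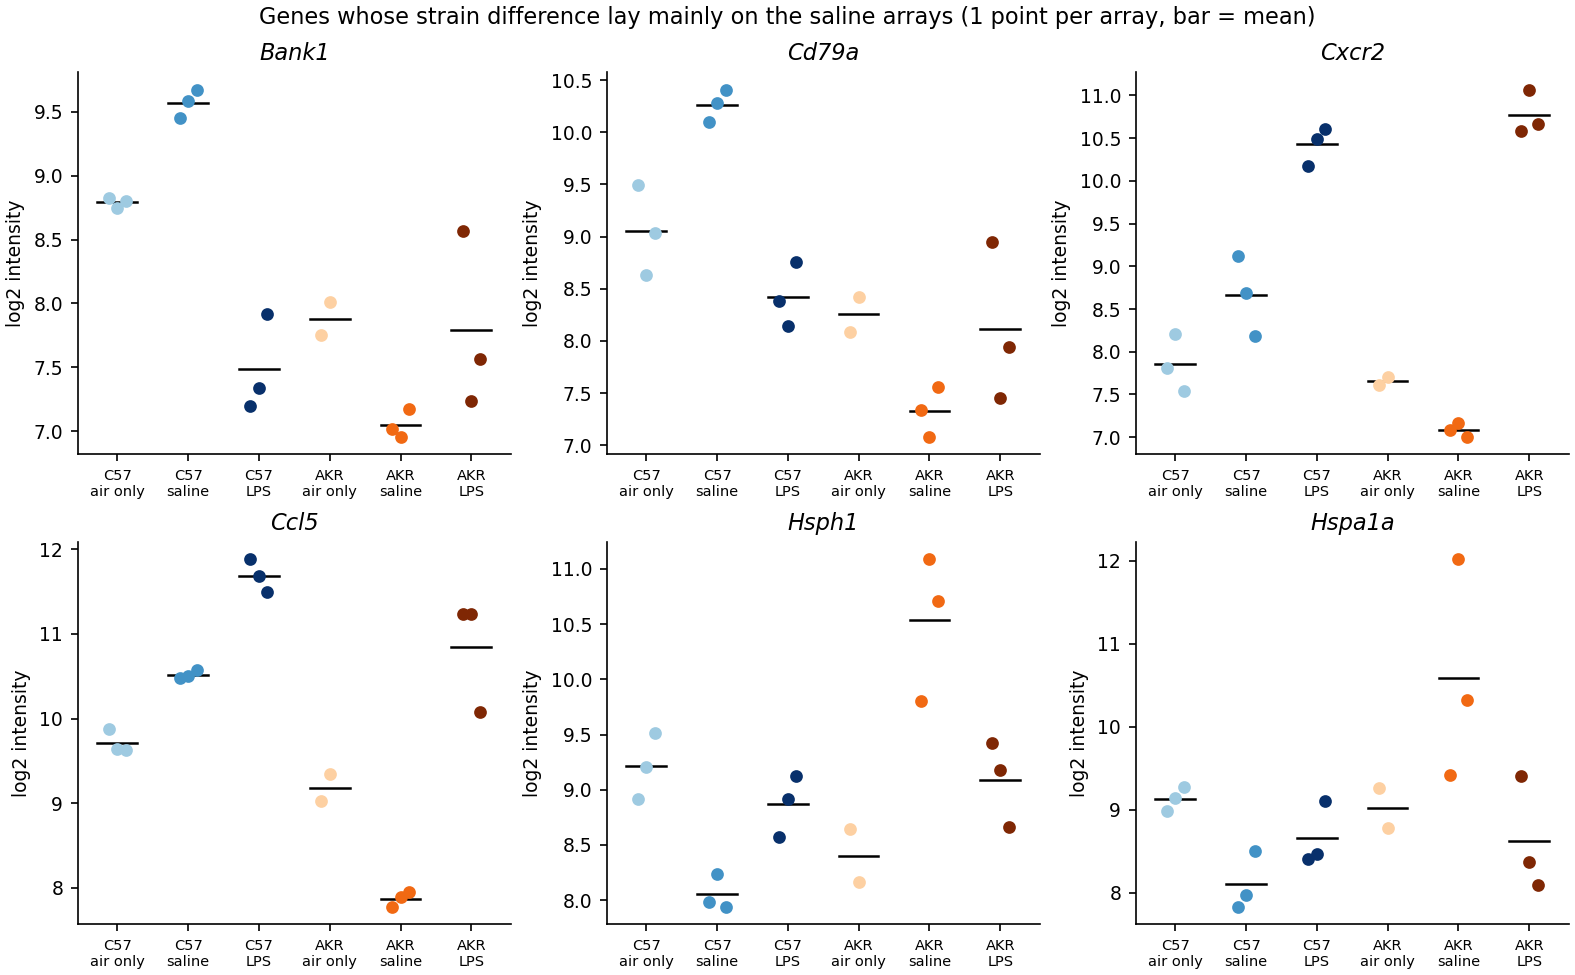
Log2 intensity of 6 genes on each array (points) with group means (bars), in the same 6 groups as the plot of BC018473. Bank1, Cd79a, Cxcr2 and Ccl5 are lower on the 3 AKR saline arrays than on the 3 C57 saline arrays, with the means of the air-only groups between these, and Hsph1 and Hspa1a are higher on the AKR saline arrays.

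Heat shock proteins, the chaperones that refold damaged proteins, had the lowest list median, -0.67 (all genes -0.04). All 24 genes tested had a negative interaction, where 6140 of all 14705 genes had a positive one. Of these, 2 passed, Hsph1 and Serpinh1, where 0.265% of all genes were lower. At an unadjusted p under 0.05 there were 21, against 1735 of all 14705 genes. In AKR 14 fell with LPS (6.32% of all genes did). In C57 4 rose, near the share of all genes (11.9%). Many heat shock genes are driven by the factor HSF1, which binds inverted repeats of GAA. The letters GAANNTTC or TTCNNGAA (a head-to-head or tail-to-tail pair of such repeats, either strand, which read the same on both) were searched in RefSeq promoters of build GRCm38.p6, windows of 300 bases that run from before to just after each start; this reference is of C57BL/6J, and the AKR sequence was not used here. They occurred in 12 of the 21 list members matched, against 17% of 27025 genes. A match is a run of letters and shows no binding. The promoters of 4 members are given because these genes had a match and, among members with one, some of the most negative values, on the strand of the gene, with each match in capitals; adjoining matches overlap in Hsph1 and Chordc1.
Hsph1 (chr5:149636287-149636586, minus strand): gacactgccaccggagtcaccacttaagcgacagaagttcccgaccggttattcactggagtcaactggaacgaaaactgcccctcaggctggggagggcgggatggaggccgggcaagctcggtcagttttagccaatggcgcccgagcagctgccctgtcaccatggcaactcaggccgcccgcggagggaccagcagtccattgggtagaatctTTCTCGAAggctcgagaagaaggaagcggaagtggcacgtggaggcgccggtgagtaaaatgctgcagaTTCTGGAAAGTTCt
Hspa1a (chr17:34972107-34972406, minus strand): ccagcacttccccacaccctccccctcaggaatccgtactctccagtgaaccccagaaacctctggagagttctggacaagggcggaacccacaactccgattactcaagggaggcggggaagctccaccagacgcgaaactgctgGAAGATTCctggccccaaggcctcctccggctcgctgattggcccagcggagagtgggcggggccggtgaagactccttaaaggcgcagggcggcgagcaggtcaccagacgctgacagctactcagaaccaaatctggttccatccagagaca
Hspb1 (chr5:135887669-135887968, plus strand): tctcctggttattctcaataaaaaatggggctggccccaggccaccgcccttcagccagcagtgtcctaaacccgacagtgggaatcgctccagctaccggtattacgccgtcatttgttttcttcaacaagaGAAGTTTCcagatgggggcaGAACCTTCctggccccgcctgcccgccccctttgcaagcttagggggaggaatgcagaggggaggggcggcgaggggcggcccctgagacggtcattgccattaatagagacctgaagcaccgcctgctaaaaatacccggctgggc
Chordc1 (chr9:18292017-18292316, plus strand): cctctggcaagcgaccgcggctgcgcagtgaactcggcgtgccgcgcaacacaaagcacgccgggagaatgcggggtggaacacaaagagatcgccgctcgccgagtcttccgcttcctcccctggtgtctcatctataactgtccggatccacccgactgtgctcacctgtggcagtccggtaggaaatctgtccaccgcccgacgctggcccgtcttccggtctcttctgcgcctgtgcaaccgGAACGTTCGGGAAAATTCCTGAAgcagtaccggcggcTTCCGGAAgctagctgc
Hsph1 has 3 matches, Hspa1a 1, Hspb1 2 and Chordc1 5; Dnajb1 and Serpinh1 have none in this window.

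Hsph1, a co-chaperone of the HSP70 family, was at 7.98, 8.24 and 7.94 on C57 saline arrays and 8.57, 8.91 and 9.12 on C57 LPS arrays. It was at 9.80, 11.09 and 10.71 on AKR saline arrays and 9.42, 9.18 and 8.66 on AKR LPS arrays. The AKR saline arrays were above all other 9, and the interaction was -2.26 ± 0.41 (limma adjusted p = 0.022). Hspa1a, the stress-induced HSP70, was at 9.42, 12.02 and 10.32 on AKR saline arrays and between 7.83 and 9.40 on the other 9; its interaction of -2.52 ± 0.76 did not pass (0.17). The other chaperones named with a promoter did not pass either: Hspb1, a small heat shock protein, had -1.30 and Chordc1, an HSP90 partner, -1.17. Dnajb1, which hands substrates to HSP70, had -1.99 ± 0.45 (0.062), and the collagen chaperone Serpinh1 passed at -0.80. The list mean was 0.12, 0.64 and 0.56 on AKR saline arrays, -0.07, -0.14 and -0.30 on AKR LPS arrays, -0.35, -0.26 and -0.22 on C57 saline arrays, -0.13, 0.01 and 0.14 on C57 LPS arrays and -0.17 and -0.23 on the AKR arrays without instillation. The first AKR saline array lay just below the highest C57 LPS array, and the other two lay above every array of the other groups. Without the first AKR saline array 10 of the 24 passed, and without any other array between 0 and 2. Over all genes, 29 were lower without the first AKR saline array, against 39 with all 12 arrays.

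Akr1c14, a hydroxysteroid dehydrogenase that inactivates steroids, had the most negative interaction past the threshold and was the 1 gene of 25 on the xenobiotic and steroid metabolism list to pass (list median -0.24). It rose in C57, from 9.73, 9.72 and 9.72 to 11.29, 11.47 and 11.03, and fell in AKR, from 9.19, 9.07 and 9.47 to 8.35, 9.08 and 8.10 (-2.27 ± 0.30, limma adjusted p = 0.0044). Apod, a lipid-binding apolipoprotein, rose by 2.91 in C57; in AKR 2 LPS arrays had 8.76 and 8.60 and the other 10.18, with saline at 8.33 to 8.64 (-2.23 ± 0.45, 0.037). Alpl, tissue-nonspecific alkaline phosphatase, which can remove phosphate from LPS, was at 7.39, 7.60 and 7.67 in C57 with saline and 9.41, 8.99 and 9.16 with LPS. In AKR it was already at 8.77, 9.09 and 8.49 with saline and stayed at 8.61, 9.14 and 8.70 (-1.60 ± 0.25, 0.012). Fst (follistatin, an activin antagonist, chosen after its values were seen) rose from 7.28 to 7.34 up to 8.70 to 8.82 in C57 and lay at 6.89 to 7.16 and 7.12 to 7.24 in AKR (-1.29 ± 0.13, 9.3e-04).

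In Kcnma1, the pore of the large-conductance calcium-activated potassium channel, the strain difference was far larger than the LPS effect. The gene was at 4.73 to 5.54 in C57 with saline and 7.30 to 7.41 with LPS, and at 12.68 to 12.81 and 12.96 to 13.27 in AKR. Its interaction was -1.88 ± 0.24 (limma adjusted p = 0.0036). Slfn8, a Schlafen gene of lymphocytes and macrophages, was at 4.43 to 5.15 with saline and 4.83 to 4.86 with LPS in AKR, and went from 6.82 to 7.48 up to 8.75 to 9.42 in C57 (-1.66 ± 0.32, 0.029). Its AKR values lay below the 40th percentile of those arrays (6.21 to 6.27). The AKR values of Kcnma1 were not far below the array maxima (14.17 to 14.54). Whether such low or high signal limited the LPS changes was not tested. Chia1, an acidic chitinase of alveolar and gastric epithelium, rose in C57 by 0.64 and fell in AKR by 1.06 (-1.70 ± 0.28, 0.013). Of the 22 extracellular matrix genes only Col6a2, a chain of collagen VI, passed (-0.79 ± 0.13, 0.015), with a list median of -0.33.

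The saline arrays can be set beside mice that breathed room air and had no instillation: 3 C57 arrays titled 6 wk and 2 AKR arrays titled 3 wk, so that the lengths differ. Instillation of saline is itself a procedure, and the room-air arrays show where each saline level lies. Bank1 had 8.83, 8.75 and 8.80 on the C57 room-air arrays, below all C57 saline arrays, and 7.75 and 8.01 on the AKR room-air arrays, above all AKR saline arrays. The B cell list mean had the same order: 0.60, 0.37 and 0.49 on C57 room-air arrays against 1.03 to 1.25 with saline, and -0.23 and -0.03 on AKR room-air arrays against -0.97 to -0.72 with saline. Hsph1 had 8.91, 9.21 and 9.52 on the C57 room-air arrays, above C57 saline, and 8.64 and 8.17 on the AKR room-air arrays, below AKR saline. The saline arrays of each strain therefore lay to 1 side of that strain's own room-air arrays in these genes, and the side was opposite in the 2 strains. Bank1 and Hsph1 were named for a large interaction against saline, so outlying saline levels follow in part from that choice.

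With room air alone as the reference in place of saline, which keeps the same 6 LPS arrays, limma called 14 genes (0.0952%; 2564 at an unadjusted p under 0.05). Because both comparisons share those arrays, each gene's values are only set side by side. BC018473 had 6.16 (against 6.17 with saline), Ifi202b 3.35 (3.35), Hal, which degrades histidine, 1.54 (1.08), Sectm1b 1.60 (1.58), C1qb -1.41 (-1.48), Akr1c14 -2.31 (-2.27), Alpl -1.73 (-1.60) and Slfn8 -2.26 (-1.66), and each of these, with Islr, passed with either reference. Gbp2b kept its size, 2.59, but did not pass (adjusted p = 0.14). C1qa had -0.83 and C1qc -0.98, and neither passed (limma adjusted p = 0.13 and 0.052). The genes whose strain difference lay on the saline arrays had smaller values: Bank1 1.22, Cd79a 0.49, Fcer2a 0.56, Cxcr2 0.54 and Ripor2 0.52, none passing. S100a9, whose centred strain difference was -1.24 with saline and 1.57 with LPS, had 1.74 and did not pass. Ccl5 had -0.30, Ly6a2 -0.70, Selplg -0.41 and Hsph1 1.03, each opposite in sign to the value with saline. The median over the 142 higher genes was 0.32 (1.31 with saline), and over the 39 lower genes -0.89 (-1.10). These genes were chosen with saline as the reference, so smaller medians with another reference follow in part from that choice. This bears more on the higher genes: for 122 of 142 the larger strain difference lay on the saline arrays, against 12 of 39 lower genes. By list, the median was 0.56 for B cells, with none of 13 passing (6 at an unadjusted p under 0.05), -0.58 for natural killer cells, 0.07 for heat shock proteins and -0.49 for the C1q and resident macrophage list. The heart muscle median was 1.42 in this comparison and 0.34 with saline, and its part was not tested.

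**Figure D4:**
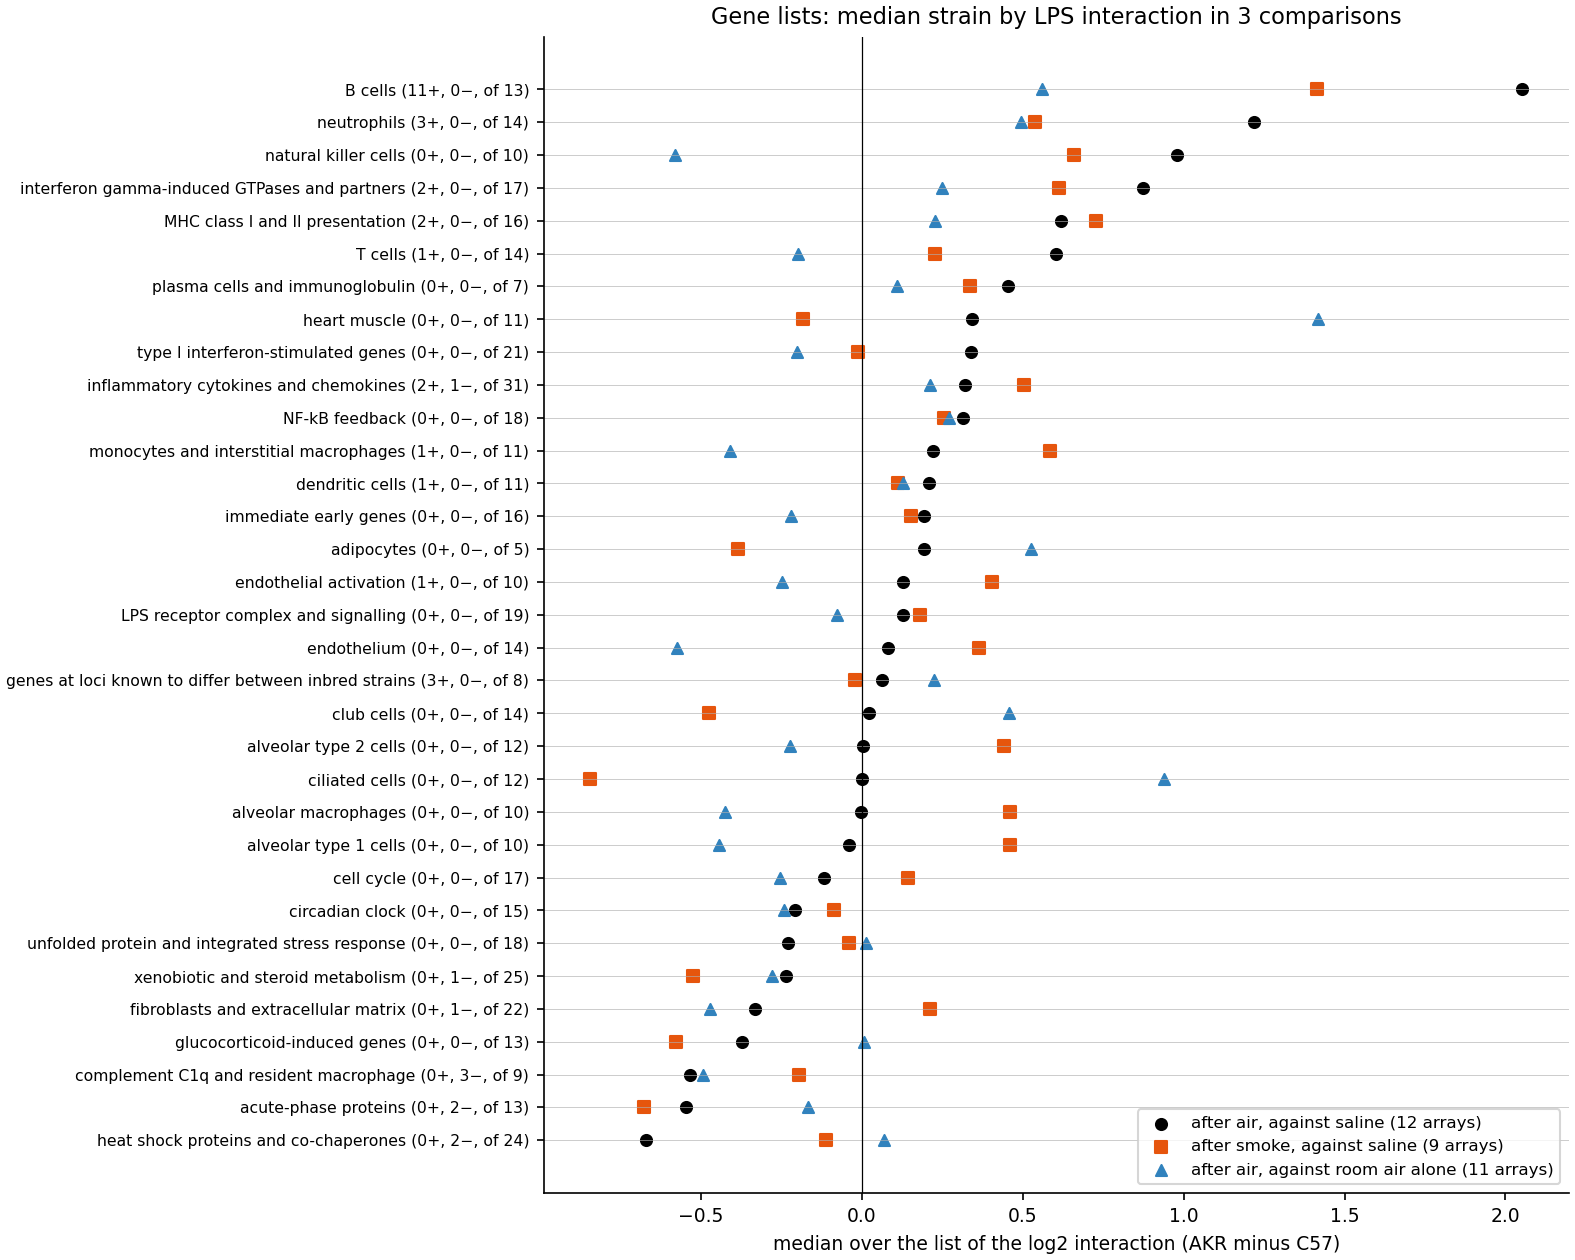
Median log2 interaction (AKR minus C57) over the tested members of each gene list with at least 5 members, after air against saline (black circles), after smoke against saline (orange squares, 9 arrays) and after air against room air alone (blue triangles); the labels give how many members were higher and lower after air against saline. B cells have the highest black circle (2.05) and heat shock proteins the lowest (-0.67), and both lists lie nearer 0 against room air alone (0.56 and 0.07).

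The same difference of differences can be taken in the mice that had cigarette smoke, also titled 3 wk, in place of room air: 3 C57 saline, 3 C57 LPS, 3 AKR saline and 2 AKR LPS arrays. None of these 11 arrays is among the 12 above. The third C57 smoke saline array and the third C57 smoke LPS array depart from their labels in their LPS-response genes. The counts and medians are therefore given with and without both, and values of single genes are without both unless said otherwise. Because LPS-response values marked these arrays, leaving them out bears on the interaction itself, and the counts without both are no independent test. Each C57 group is then as small as the AKR LPS group. With all 11 arrays limma called 8 genes (0.0544%), and without both 54 genes (0.367%), 47 of them higher (0.32%) and 7 lower in AKR (0.0476%). Without both, 174 of the 181 genes called after air had the same sign after smoke (96.1%; 56.3% of all genes tested) and 24 passed there as well; with all 11 arrays 157 had the same sign (86.7%; 52% of all genes) and 6 passed. Across the 181 genes the interactions after air and after smoke had a Pearson correlation of 0.87 with 9 smoke arrays and 0.62 with 11. Over all 14705 it was 0.47 and 0.36. The 181 were chosen for large values after air in both directions, which by itself raises their correlation. Within the higher genes it was 0.78 with 9 arrays and 0.56 with 11, and within the lower genes 0.61 and -0.012. Genes are not independent of each other and no p is given. The median of the higher genes was 1.31 after air and, after smoke, 1.03 with 9 arrays and 0.91 with 11. That of the lower genes was -1.10 after air and -0.68 and -0.17 after smoke, with 34 and 21 of 39 of the same sign.

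Several genes had nearly equal values after air and smoke. BC018473 had 6.34 ± 0.26 after smoke, Ifi202b 3.35 ± 0.20, Fcer2a 2.41 ± 0.16, Ltb, the lymphotoxin subunit that organises lymphoid tissue, 1.67 ± 0.21 and Ccl5 1.98 ± 0.32, and these passed in limma (adjusted p = 2.2e-05, 3.6e-04, 4.9e-04, 0.021 and 0.045). With all 11 arrays the values were 6.30, 3.35, 2.90, 1.63 and 2.93, and all of these but Ccl5 (adjusted p = 0.22) passed. Alpl had -1.38 ± 0.22 and Tarm1, a receptor of neutrophils and macrophages, -1.80 ± 0.27 (0.045 and 0.041); with all 11 arrays Alpl had -0.24 (0.93) and Tarm1 0.93 (0.87), neither passing. Hal had 2.50 ± 0.17 after smoke, 1.77 with all 11 arrays (0.43), and 1.08 ± 0.18 after air. Other genes called after air did not pass after smoke with 9 arrays. Bank1 had 2.16, Cd79a 2.54, Gbp2b 2.23, Akr1c14 -2.07 and C1qb -0.93 (limma adjusted p = 0.088, 0.17, 0.080, 0.14 and 0.31). C1qa and C1qc, at -0.89 and -0.73, did not pass either. The B cell median after smoke was 1.41 with 9 arrays, with 1 gene passing, and 0.64 with 11. The neutrophil median was 0.54 and 2.60, so its size rests on the 2 doubted arrays. The heat shock median was -0.11 and -0.07, and Hsph1 had -0.31 (0.85). With 9 arrays the 7 genes of opposite sign after smoke were Cd7, Dpp9, Mmp19, Praf2, Prg4, Sectm1b and Serpinh1, and none of them passed there. The difference between the smoke and the air interaction passed for 0 genes in limma, with all 23 arrays (1400 at an unadjusted p under 0.05) and without both doubted arrays (723).

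**Figure D5:**
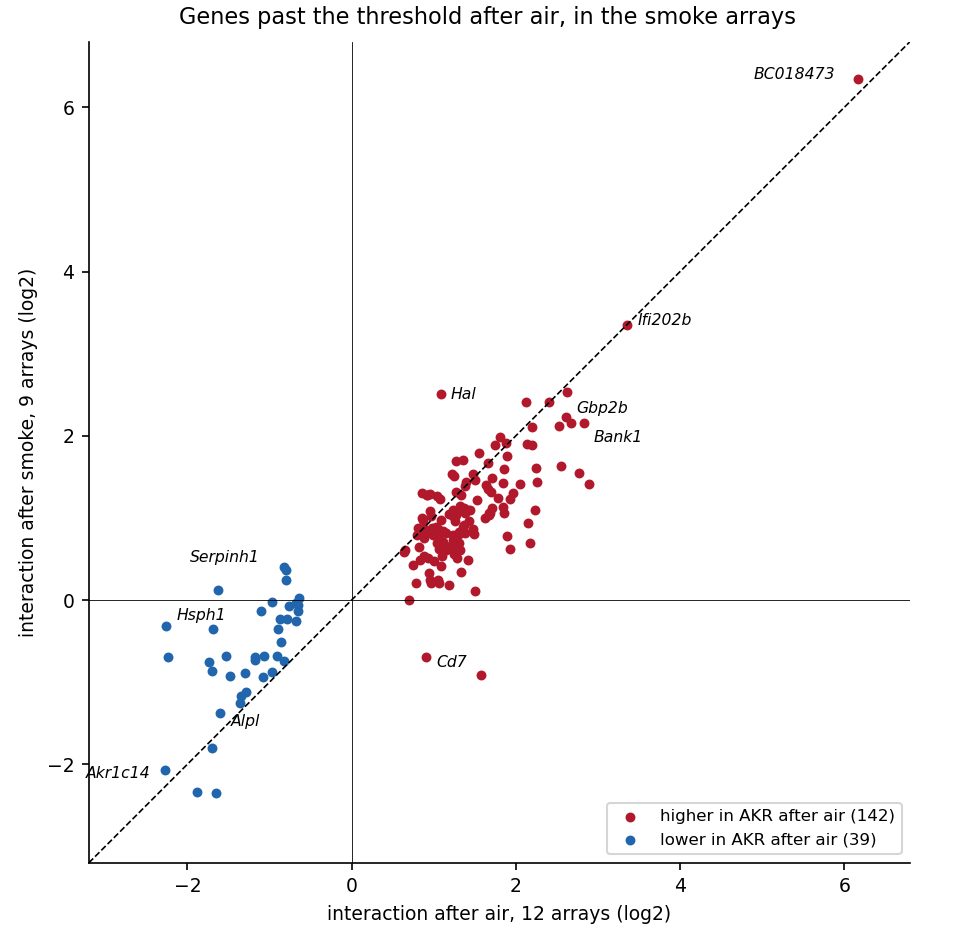
Log2 interaction (AKR minus C57) after smoke on 9 arrays against that after air on 12 arrays, for the 142 higher (red) and 39 lower (blue) genes of the air comparison; the dashed line marks equality. BC018473 and Ifi202b lie on the line, most red points lie below it, and 7 genes, among them Cd7 and Serpinh1, lie across 0.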

How the data were processed

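RNA of mouse lung was measured on Affymetrix arrays. The authors deposited log2 values per probe set made with RMA (robust multi-array averaging), per the submitters' processing notes; its version is not given in the sources used here. The 31 arrays fall into 2 sets of different distribution: 18 (all C57 arrays and AKR 6 wk room air) have medians of 6.96 to 7.10 and 13 (other AKR arrays) of 6.80 to 6.90. Whether they were normalized together is not stated. An offset shared by all arrays of a strain cancels in the interaction; strain levels were centred on the median of all genes.

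Of 35556 probe sets, 21789 carry 1 symbol in the platform annotation, 1621 several and 12146 are unnamed here. The brightest probe set stood for each of 19938 genes, and the 14705 above the 40th percentile of at least 3 arrays were tested. The main test was limma 3.58.1 in R 4.3.3, with 4 group means on the 12 arrays (8 residual degrees of freedom), two-sided, adjusted by Benjamini-Hochberg; it was also tested on simulated data. The number of arrays limits precision. Promoters are from RefSeq, GRCm38.p6.

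Genes named in the text are the 15 largest passing interactions in each direction, up to 4 members of each gene list and a fixed set of genes. Other genes, mostly further list members and genes passing in a second comparison, were named after their values were seen. The comparison, gene lists and named genes were chosen with earlier results of these data known. Alternatives were other arrays in the fit, normalization, filter, probe set choice, moderation, a replicate block, room air as reference and leaving out each array. The labels call the arrays biological replicates; same-numbered arrays had deviations correlated between -0.31 and 0.54, so the numbers were not taken as pairs.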

Additional observations from a re-analysis of the deposited data

Results flagged for a closer look

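The interaction term itself tests whether the strains' LPS effects differ, and it passed for 181 genes after room air. After smoke it passed for 8 genes with all 11 arrays.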

How the results depend on the processing

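All 181 genes kept their sign in each refit of the 12 arrays and in the fits with more arrays (154 were tested under a filter at the 60th percentile); against room air alone, which shares the 6 LPS arrays, 145 of the 181 kept it (108 of 142 higher, 37 of 39 lower), and of the genes named for their list or size Ly6a2 had -0.70, Hsph1 1.03, Lef1 -0.25, Ccr2 -0.12, Ccr7 -0.16, Ccl5 -0.30 and Selplg -0.41. The filters, the moderation options, the replicate block and the fits with more arrays leave each gene's estimate as it was. Those settings could not turn a sign. The 181 genes were also chosen on these 12 arrays, so kept signs in the other refits are no independent support. Counts did move. With 29 arrays in the fit 402 genes passed, 250 higher and 152 lower (172 shared with the 181); with all 31 arrays 167 passed (102 shared). Against room air alone 14 passed, 6 higher and 8 lower. Leaving out 1 array gave 70 to 379 genes, 58 to 328 higher and 12 to 80 lower. Quantile normalization of the 12 arrays gave 211, centring and scaling 182, no filter 162, the 60th percentile 173, the mean of a gene's probe sets 175 and moderation with trend and robust options 197. With a replicate block 184 passed, 159 of them shared; 8 of 12 arrays correlated best with their own number, a hint from the data only. After smoke the counts were 8 with 11 arrays, 54 without both doubted arrays, 2 with a replicate block and 2 to 38 without 1 array; without both doubted arrays Tarm1 had -1.80 and Saa3 -2.47, against 0.93 and 1.83 with them. The cause of these changes was not tested. In all 21 settings other than room air alone, 39 genes passed.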
